A study of Mus musculus with 9 samples.

Results

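Glycolysis genes were examined in MPC clones, that is, primary cells grown out of pancreatic tumors of mice that overexpress METTL3. The genes were 10, chosen by symbol along the pathway, namely Slc2a1, Hk1, Hk2, Gpi1, Pfkl, Aldoa, Gapdh, Pgk1, Pkm and Ldha. They took 11 of the 18049 rows of the deposited table, because Aldoa was listed under 2 gene identifiers. Each of the 10 genes had a row among the 14705 rows tested, those whose mean reached 10 normalized counts. The additional Aldoa row (ENSMUSG00000114515) averaged 8.53 ± 2.83 normalized counts over the clones (SD, n = 9) and was left out of the tests. Aldoa below means the other row, ENSMUSG00000030695.

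All 9 clones belonged to the WTg genotype, in which EL1-Luc/EL1-Tag mice are crossed with CAG-Mettl3 mice. In these animals the elastase I promoter drives luciferase and the SV40 large T antigen in the pancreas, and the CAG promoter drives a Mettl3 open reading frame broadly. Tumor tissue was minced and plated, and colonies were picked with cloning cylinders and grown in DMEM with 10% FBS, so each library is a single clone in culture and not tumor tissue. The labels call the cells fibroblasts and give the treatment as none, although a protocol field names NMS-P937 at 80 nM for 24 h. Age, sex and the number of mice are not given in the sources used here, so p-values measure the spread between these clones, which may not be independent. There was no other genotype in the samples analysed, and thus no contrast of METTL3 overexpression with a control was made.

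The column names fell under 3 prefixes of unstated meaning. They are called prefix A (library A1), prefix B (libraries B1 to B4) and prefix C (libraries C1 to C4) here. A total of 12198036 to 20453901 reads per library was counted on genes, with the fewest in A1. Levels are given in normalized counts, that is, reads multiplied by 1 scaling factor per library, and 1 read was worth 1.26 to 2.19 of them. Transcript lengths were not used here, so levels, and shares or ratios of levels, are read between clones and give no order of the genes within a clone. All 9 fibroblast markers (Col1a1, Col1a2, Vim and others) were above 3 reads in every library and summed to 1.38% to 3.61% of normalized counts. The 9 macrophage markers (Lyz2, Csf1r, C1qa and others) were also above 3 reads in every library and summed to 2.03% to 3.15%, so the cell type label was not clear-cut in these data. Acinar markers summed to at most 0.00955%, epithelial markers to at most 0.000719% with no read of Epcam, and endothelial markers to at most 0.00168%. In RNA from a whole culture, more cells of a type and more RNA per cell cannot be told apart.

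Glycolysis splits glucose into pyruvate in the cytosol and yields ATP without oxygen. Glucose enters through transporters such as GLUT1, is trapped by hexokinase, is committed by phosphofructokinase, and is turned to lactate by lactate dehydrogenase where pyruvate is not burned in mitochondria. Proliferating and tumor cells are known to run the pathway fast even with oxygen present. The transcription factors HIF-1 and MYC are textbook activators of many of its genes, and HIF-1 binds the hypoxia response element, whose core is ACGTG or GCGTG.

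The windows upstream of the start sites of 4 genes are shown. They were picked because Slc2a1, Pgk1 and Ldha varied closely together among the clones, whereas Hk2 did not. Other genes that are not shown also varied closely with Ldha. Pearson's r of the log2 levels with Ldha was 0.94 for Gapdh (0.98 without A1) and 0.95 for Gpi1 (0.93 without A1). For Slc2a1 it was 0.98 (0.96 without A1). Each window holds the 250 bases before a RefSeq start site of GRCm38.p6, read 5′ to 3′ on the strand of the gene. Ldha has 2 such windows, both inside its annotated span on chromosome 7. Capitals mark the cores ACGTG and GCGTG, which appear as CACGT and CACGC where they lie on the opposite strand. The palindrome CACGTG holds ACGTG on both strands.
Slc2a1, chr4:119108495-119108744, plus strand: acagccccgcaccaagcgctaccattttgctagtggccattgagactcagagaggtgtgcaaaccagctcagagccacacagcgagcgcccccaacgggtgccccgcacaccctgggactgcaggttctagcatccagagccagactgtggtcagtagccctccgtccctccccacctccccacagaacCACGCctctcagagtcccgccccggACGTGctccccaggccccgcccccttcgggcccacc
Hk2, chr6:82774455-82774704, minus strand: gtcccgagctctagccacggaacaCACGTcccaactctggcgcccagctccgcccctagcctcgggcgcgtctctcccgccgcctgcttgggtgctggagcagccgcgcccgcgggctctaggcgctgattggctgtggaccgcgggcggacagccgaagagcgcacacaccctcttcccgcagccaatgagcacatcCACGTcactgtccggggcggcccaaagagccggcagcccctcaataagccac
Pgk1, chrX:106186850-106187099, plus strand: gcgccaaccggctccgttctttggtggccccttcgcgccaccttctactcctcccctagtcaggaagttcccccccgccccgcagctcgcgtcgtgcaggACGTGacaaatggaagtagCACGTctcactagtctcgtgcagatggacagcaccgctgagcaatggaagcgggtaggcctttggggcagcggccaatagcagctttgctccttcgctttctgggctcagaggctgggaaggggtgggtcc
Ldha, chr7:46845554-46845803, plus strand: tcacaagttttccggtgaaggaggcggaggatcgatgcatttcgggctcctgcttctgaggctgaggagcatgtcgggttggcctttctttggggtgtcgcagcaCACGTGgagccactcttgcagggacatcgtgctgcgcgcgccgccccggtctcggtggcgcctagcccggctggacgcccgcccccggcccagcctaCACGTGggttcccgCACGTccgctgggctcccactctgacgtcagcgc
Ldha, chr7:46846832-46847081, plus strand: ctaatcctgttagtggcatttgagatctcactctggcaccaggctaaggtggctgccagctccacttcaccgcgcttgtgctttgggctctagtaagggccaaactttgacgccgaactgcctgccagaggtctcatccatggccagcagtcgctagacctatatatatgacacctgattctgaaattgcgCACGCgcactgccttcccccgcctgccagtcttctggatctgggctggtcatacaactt

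Slc2a1 had 1 ACGTG and 1 GCGTG, Hk2 had 2 ACGTG and Pgk1 had 2 ACGTG. The window of Ldha that starts at 46845554 had ACGTG 2 times on the strand of the gene and 3 times on the opposite strand, of which 2 pairs fell together in CACGTG, and its other window had 1 GCGTG. One or the other core was found in 11 of the 15 windows of the 10 genes (73.3%), in 54.4% of the 13710 windows of genes tested and in 38.6% of all 32851 windows. ACGTG alone was found in 7 of the 15 windows, in 21.1% of the windows of genes tested and in 16.6% of all windows. Of the 10 genes, Gpi1 was the only gene with neither core in any window, and 2 of the 3 Aldoa windows overlap. The window of Gapdh, which is not shown, had 2 GCGTG and no ACGTG. Whether a core goes with how a gene varied among the clones was not tested. A match is a run of letters and is not evidence of a bound factor.

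Slc2a1 (ENSMUSG00000028645, chromosome 4, 119108745 to 119137330) encodes GLUT1, the transporter that lets glucose into most cells. It was at 4512 normalized counts in A1, at 1999, 2602, 2014 and 2126 in B1 to B4, and at 2748, 3813, 2099.8 and 3624 in C1 to C4. A1, C2 and C4 were high, and C3 lay among the B libraries. Over the 9 clones the level was 2838 ± 927 (SD), and the highest clone was 2.26 times the lowest. The 95% Wilson intervals of the reads of A1 and of B1, the highest and the lowest clone, were 4322 to 4711 and 1903 to 2100.3 normalized counts and cover counting error only.

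Hexokinase traps glucose as glucose 6-phosphate. Hk1 (ENSMUSG00000037012, chromosome 10), the form most tissues use, was at 3749 in A1, at 2919, 2838, 2664 and 2919.7 in B1 to B4, and at 3046, 3754, 3198 and 3500.3 in C1 to C4. It was the only one of the 10 genes with every C library above every B library. Hk2 (ENSMUSG00000000628, chromosome 6), the inducible form that is raised in many tumors, was at 2788 in A1, at 2142, 2401, 3684 and 3046 in B1 to B4, and at 2682, 2657, 1838 and 2242 in C1 to C4. Its order of clones was another one, with B3 and B4 highest and C3 lowest. The Wilson intervals of Hk2 were 3544 to 3830 normalized counts in B3 and 1742 to 1940 in C3.

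The next steps carry the sugar phosphate to its split. Gpi1, the isomerase that makes fructose 6-phosphate, ranged from 9497 in B1 to 14132 in A1 with a median of 10740.4. Pfkl, the liver-type subunit of phosphofructokinase, the committing step, ranged from 2758 in B3 to 5543 in C4 with a median of 3467. Aldoa, the aldolase that splits fructose 1,6-bisphosphate, ranged from 27850.1 in B1 to 38180.5 in C4 with a median of 30072. A1 was the highest clone for Gpi1, while C4 was the highest for Pfkl and Aldoa. The highest clone was 1.49 times the lowest for Gpi1, 2.01 times for Pfkl and 1.37 times for Aldoa, which varied least of the 10 genes by this measure.

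Of the genes of the payoff steps, Gapdh and Pgk1 varied more than any other of the 10. Gapdh (ENSMUSG00000057666, chromosome 6), which makes NADH from glyceraldehyde 3-phosphate and is widely used as a reference gene, was at 68709 in A1, at 21753, 26645, 23147 and 23157 in B1 to B4, and at 31455, 32427, 23503 and 36076 in C1 to C4. Pgk1 (ENSMUSG00000062070, chromosome X), which makes ATP in the next step, was at 24398 in A1, at 9046, 11244, 9457 and 9729 in B1 to B4, and at 14231, 16634, 10113 and 16774 in C1 to C4. For both genes A1 was far above the other clones, and C3 fell within the range of the B libraries. Pkm, the pyruvate kinase of most tissues other than liver, ranged from 51693 in B1 to 78626 in A1 with a median of 59595.

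Ldha (ENSMUSG00000063229, chromosome 7, 46842274 to 46855627), which turns pyruvate to lactate and restores NAD+, was at 27947 in A1, at 12626, 15651, 14106 and 13849 in B1 to B4, and at 19294, 21812, 14594 and 21794 in C1 to C4. Its order resembled that of Pgk1, with B1 lowest, C3 among the B libraries and A1 highest. Reads of Gapdh, Pgk1, Ldha and Aldoa may include reads of near-identical pseudogene copies. The submitters' processing notes name RSEM, yet recovered values under 1000 reads were whole, so the handling of such copies is not clear here.

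**Figure D1:**
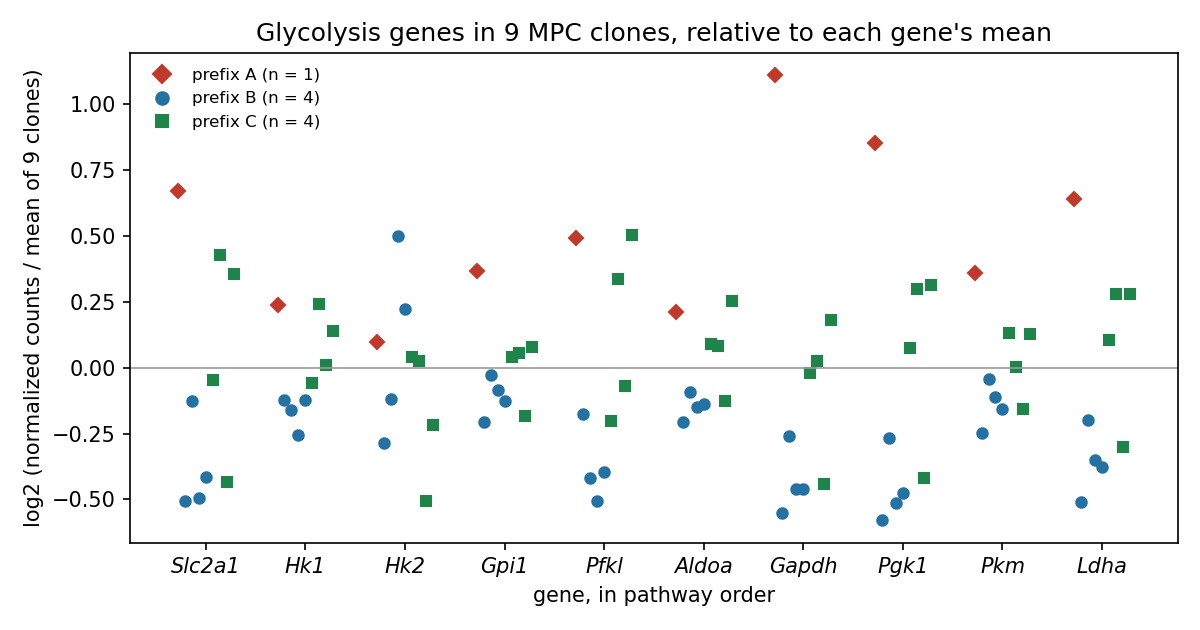
Level of each glycolysis gene in each of the 9 MPC clones as log2 of the normalized counts over the mean of the 9 clones (vertical axis), with the genes in pathway order (horizontal axis), and a diamond, circles and squares for the libraries of prefixes A, B and C. A1 lies above the mean for all 10 genes, B1 is the lowest clone for 7 of them, and Hk2 alone has its highest clone in prefix B.

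By the median, the 10 genes varied more among the clones than the genes whose mean reached 1000 normalized counts. The median coefficient of variation of the 10 was 24.6%, against 11.7% for those 5192 genes, which were not matched to the 10 in level. Without A1 the medians were 20.9% and 10.4%. Gapdh had a coefficient of variation of 46.1%, above that of 96.5% of those genes, Pgk1 one of 37.6% (above 94.3%), Slc2a1 one of 32.7% (above 91.8%), and Pfkl and Ldha ones of 28.4% (both above 88.7%). Hk1, Gpi1, Aldoa and Pkm lay near the middle, at 11.9% to 13.7%. These are descriptions without a test.

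A single clone, A1, stood at the top of the range. A1 was among the 4 highest clones for all 10 genes and the highest for 6 of them (Slc2a1, Gpi1, Gapdh, Pgk1, Pkm and Ldha), while 19.9% of all genes tested were highest in A1. Its level over the mean of the other 8 clones was 2.52 for Gapdh, 2.01 for Pgk1, 1.72 for Slc2a1, 1.67 for Ldha and 1.48 for Pfkl. For the other 5 genes it was between 1.08 (Hk2) and 1.34 (Gpi1). Together the 10 genes took 1.002% of the normalized counts of A1, 0.558% to 0.634% in the B libraries and 0.605% to 0.791% in the C libraries. A1, the only library of prefix A, was not tested against the other prefixes. Rescaling each library to its upper quartile or its total shifted A1 by -0.068 and -0.049 on the log2 scale.

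B1 was at the other end of the range, and C3 lay apart from the other C libraries. B1 was the lowest clone for 7 genes and among the 3 lowest for 9 genes. C1, C2 and C4 were among the 4 highest clones for 8, 9 and 9 genes, whereas C3 was so for 2 genes and had a median rank of 6 among the 9 clones.

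Libraries of prefixes B and C were compared to see whether the glycolysis genes followed the prefix. This is not a comparison of the study. None of the 10 genes passed an adjusted p of 0.05 in limma over the 14705 genes, of which 34 passed (0.231%). At an unadjusted p under 0.05 there were 2962 genes (20.1%), 6 of them glycolysis genes, and with voom on the recovered reads 31 genes passed, none of the 10. The level of Pgk1 was 9869 ± 959 in prefix B and 14438 ± 3111 in prefix C (SD, n = 4 each), a log2 difference (B minus C) of -0.53 with a standard error of 0.16 (limma, adjusted p = 0.17). Ldha was at 14058 ± 1243 and 19374 ± 3399, a difference of -0.45 ± 0.14 (SE, limma, adjusted p = 0.17).

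The remaining differences ran from -0.51 for Pfkl to -0.11 for Gpi1, and Hk2 had a value of 0.24, with adjusted p between 0.16 and 0.47 over the 10 genes. The median over the 10 genes was -0.31, beside 0.017 over all genes tested. C libraries lay above all B libraries without overlap for 1 of the 10 genes (Hk1), against 4.55% of all genes. No glycolysis gene had every B library above every C library, against 5.74% of all genes. When C3, singled out after its values were seen, was left out, 8 of the 10 genes had the remaining C libraries above every B library, against 8.43% of all genes, and Pgk1 (log2 difference -0.69, limma adjusted p = 0.035) and Ldha (-0.58, adjusted p = 0.038) passed among 266 genes.

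Other measures of the libraries are given by prefix, since some differed between prefixes. Fibroblast markers summed to 1.38% to 2.19% of normalized counts in prefix B, 1.89% to 3.61% in prefix C and 2.83% in A1. Macrophage markers summed to 2.59% to 2.98%, 2.03% to 3.15% and 2.37%, and the proliferation genes Mki67, Top2a, Ccnb1, Cdk1 and Plk1 summed to 0.0210% to 0.0377%, 0.0318% to 0.0700% and 0.0485%. C3, which had the level of the B libraries for many glycolysis genes, also had the highest sum of acinar markers (0.00955%). Xist, the RNA of the inactive X chromosome, was at 29664 to 32912 normalized counts in the B libraries and at 0 to 8.39 in the others (a gene chosen after its values were seen), so the prefix and the Xist level cannot be told apart in this contrast, also for the X-linked Pgk1. The part of these measures in the glycolysis values was not tested.

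**Figure D2:**
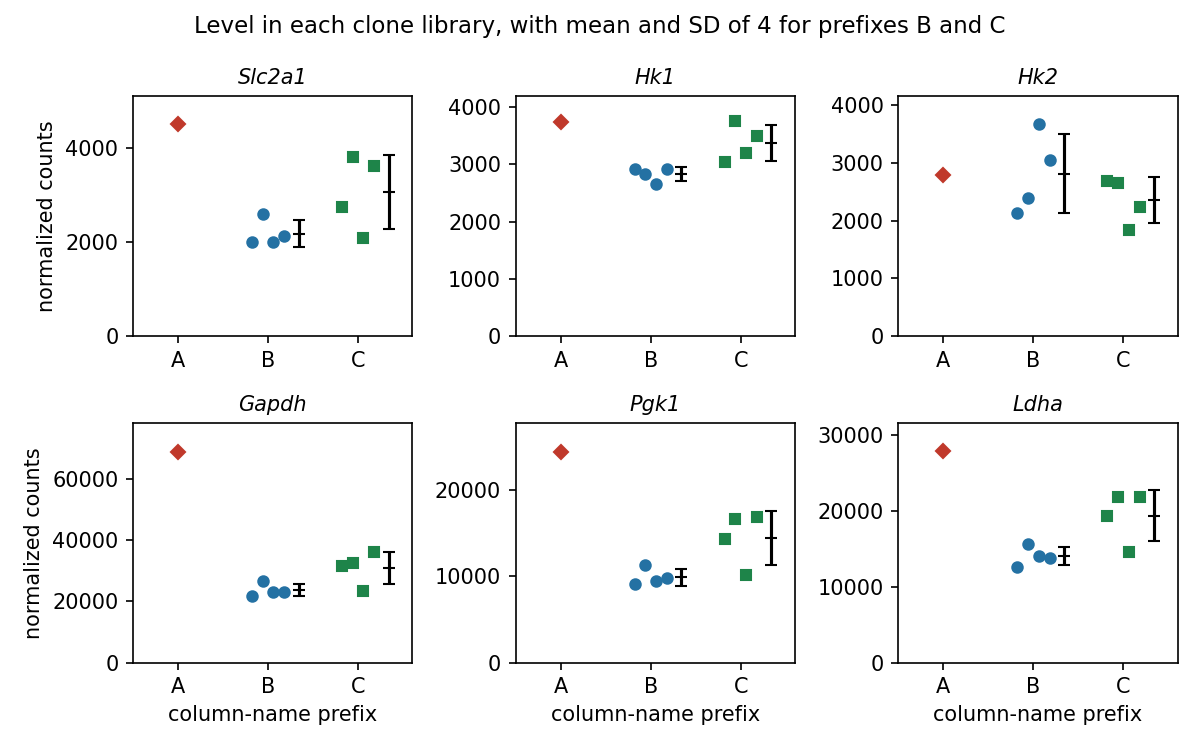
Normalized counts (vertical axis, from 0) of 6 glycolysis genes in each clone library by column-name prefix (horizontal axis), with bars for the mean and SD of the 4 libraries of prefix B and of prefix C. For Slc2a1, Gapdh, Pgk1 and Ldha the A1 point lies highest and the lowest C point, C3, lies within the range of the B points, whereas Hk2 has no such order.

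METTL3 is the m6A methyltransferase that the mice overexpress, so the genes were also set against the Mettl3 level of each clone. Mettl3 was at 2184 normalized counts in A1 and at 529 ± 58.5 in the other clones (SD, n = 8), and reads of the transgene and of the endogenous gene cannot be told apart here. None of the 10 genes passed in limma with log2 Mettl3 as the predictor over the 9 clones, against 323 of 14704 genes (2.2%). At an unadjusted p under 0.05 there were 2172 genes (14.8%), including Gapdh, Pgk1 and Gpi1, and voom called 60 genes and none of the 10. The slope, in log2 units of the gene per log2 unit of Mettl3, was 0.60 ± 0.16 (SE) for Gapdh with an adjusted p of 0.0999 in limma, 0.44 ± 0.19 for Pgk1 and 0.19 ± 0.067 for Gpi1.

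These slopes rested on A1. Without A1 the slope turned negative for 9 of the 10 genes, for instance -0.76 ± 0.61 for Gapdh, -1.18 ± 0.75 for Pgk1 and -0.15 ± 0.31 for Gpi1 (SE, n = 8). Hk2 kept a positive value, 0.77 ± 0.67. No gene of the table passed without A1, with 1632 genes at an unadjusted p under 0.05. The other 8 clones span a narrow range of Mettl3 (468 to 621 normalized counts), which limits what their slopes can show.

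The question of which glycolysis genes varied together was addressed with the level of each gene in turn as the predictor of all others in limma. All the points share a library and a scaling factor with each other. With Ldha as the predictor, 8 of the other 9 genes passed with a positive slope, against 8.24% of all 14704 genes. The slope of Pgk1 on Ldha, in log2 units per log2 unit, was 1.26 ± 0.077 (SE, limma adjusted p = 0.00033), that of Slc2a1 was 1.12 ± 0.097 (adjusted p = 0.0011), and that of Gapdh was 1.26 ± 0.17 (adjusted p = 0.0045).

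The other genes that passed had flatter slopes. Pfkl had a slope on Ldha of 0.85 ± 0.19, Pkm of 0.46 ± 0.13, Gpi1 of 0.43 ± 0.079, Aldoa of 0.41 ± 0.10 and Hk1 of 0.39 ± 0.095 (SE, limma adjusted p between 0.010 and 0.044). Hk2 had a slope of 0.052 ± 0.25 (limma adjusted p = 0.90). The median slope over the 9 genes was 0.46, beside -0.023 over all genes tested.

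**Figure D3:**
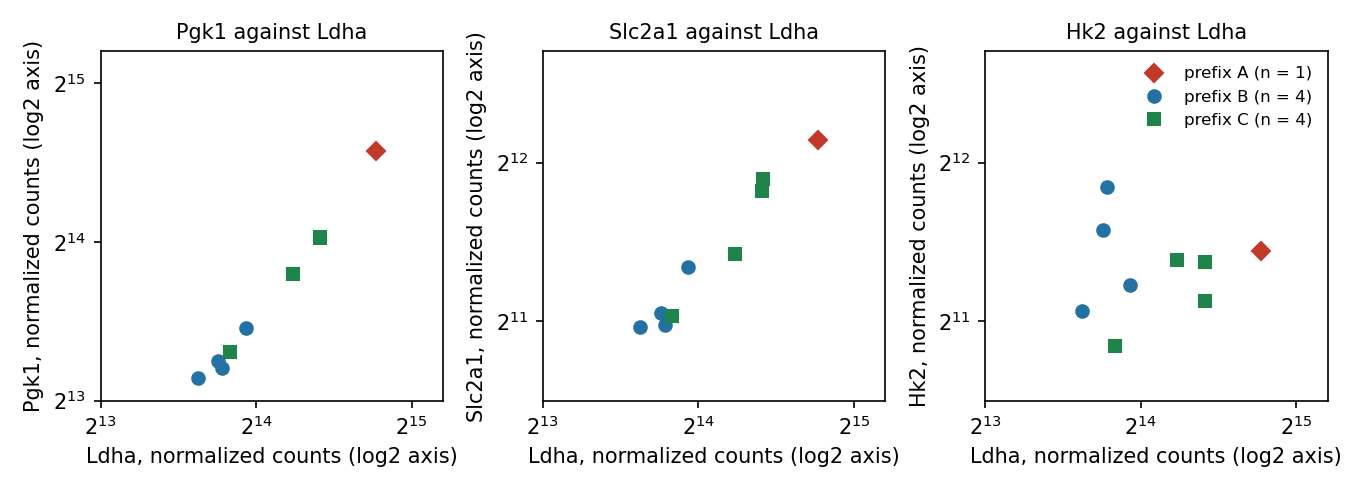
Normalized counts of Pgk1, Slc2a1 and Hk2 (vertical axes, log2) against those of Ldha (horizontal axes, log2) in the 9 MPC clones, by column-name prefix. Pgk1 and Slc2a1 lie close to a line from B1 to A1, and Hk2 is spread without such a line.

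The number that passed depended on the gene used as the predictor. With Pgk1 as the predictor 8 of 9 passed with a positive slope (8.04% of all genes), with Slc2a1 7 (7.47%), with Pkm 5 (2.48%), with Hk1 4 (5.43%), with Gpi1 4 (4.09%), with Gapdh 4 (4.81%), with Aldoa 3 (1.16%) and with Pfkl 2 (0.966%). With Hk2 as the predictor none of the 9 passed, and neither did any gene of the table (0%). There were 468 genes at an unadjusted p under 0.05 with Hk2, and voom called none of the 9. In all, 45 of 90 ordered pairs passed with a positive slope.

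Fewer pairs passed without A1, in 8 clones. Then Slc2a1, Gapdh and Pgk1 passed with Ldha as the predictor (2.01% of all genes), Slc2a1, Gapdh and Ldha passed with Pgk1 (2.37%), and Gapdh, Pgk1 and Ldha passed with Slc2a1 (2.18%). With Gapdh as the predictor Slc2a1, Pgk1 and Ldha passed (0.646%), with Aldoa Gapdh, Pgk1 and Ldha (0.17%), and with Hk1 only Pfkl (1.41%). In all, 16 of 90 ordered pairs passed, of which Gapdh on Aldoa had not passed over the 9 clones (limma adjusted p = 0.0502, and 0.049 without A1). Of the 8 slopes on Ldha that had passed, 5 were about as large. Without A1 they were 1.19 ± 0.094 for Pgk1, 1.17 ± 0.13 for Slc2a1, 0.90 ± 0.27 for Pfkl, 0.49 ± 0.13 for Aldoa and 0.42 ± 0.13 for Hk1, while those of Gapdh (0.87 ± 0.13), Pkm (0.40 ± 0.18) and Gpi1 (0.33 ± 0.094) were lower than over the 9 clones. With the prefix as a factor in the fit, 1 of the 90 pairs passed, Slc2a1 on Pgk1 (limma adjusted p = 0.036), and the slope was positive for 84 of the 90. Each pair is counted in both directions, which share a sign, and A1, alone in its prefix, adds nothing to these slopes. The share of all genes in that fit is not given here, so these counts have no background beside them. The slopes on Ldha in that fit were 1.21 ± 0.16 for Pgk1 and 1.38 ± 0.20 for Slc2a1 (both at an adjusted p of 0.070), 0.94 ± 0.21 for Gapdh, and 0.68 ± 0.48 for Hk2 (adjusted p = 0.57).

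As a description, Pearson's r of the log2 levels over the 9 clones was 0.65 to 0.995 with a median of 0.90 for the 36 pairs of genes without Hk2. For the 9 pairs with Hk2 it was -0.30 to 0.25 with a median of 0.043. Without A1 the medians were 0.90 and -0.092. After centring within prefixes B and C, also without A1, they were 0.83 and 0.36, with ranges of -0.11 to 0.99 and -0.22 to 0.56. In the centred values the median r with the other genes was 0.35 for Hk1 and 0.45 for Pfkl, beside 0.36 for Hk2. Hk2 was thus not the only gene with low r within prefixes. Hk1 and Pfkl formed a close pair (r = 0.95, and 0.94 without A1), and each had lower r with Gpi1 and Pkm, at 0.65 to 0.69.

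**Figure D4:**
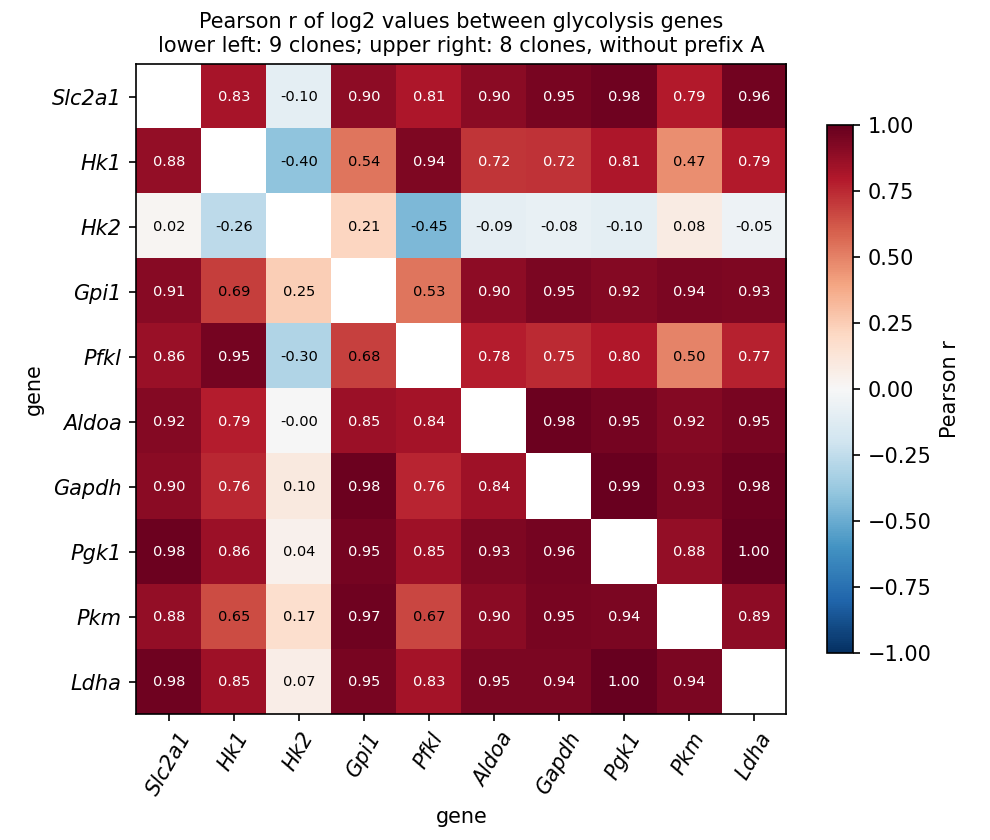
Pearson's r of the log2 levels for each pair of glycolysis genes (both axes), over the 9 clones in the lower left triangle and over the 8 clones without A1 in the upper right triangle, with the colour scale from -1 to 1. The row and column of Hk2 stay between -0.45 and 0.25, and the pair of Pgk1 and Ldha has r = 0.995 in both triangles.

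The genes with the highest r to Ldha over the 9 clones, among all genes tested, were Pgk1 (r = 0.995), Eno1 (0.981) and Tpi1 (0.979), all of which encode glycolytic enzymes, and Slc2a1 followed at rank 5 (0.976). For Slc2a1 they were Pgghg (0.993), Clec4e (0.986) and Pgk1 (0.978), with Ldha at rank 4. For Hk2 they were Rpf1 (0.918), Gm44053 (0.912) and Helz2 (0.893), and the nearest glycolysis gene was Gpi1 at rank 3322 (r = 0.25). These genes were ranked by r alone and have no test.

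Within the steps that several genes can serve, the makeup differed between clones. The ratio of Hk1 to Hk2 in normalized counts ran from 0.723 in B3 and 0.959 in B4 to 1.56 in C4 and 1.74 in C3. Of the summed normalized counts of Hk1, Hk2 and Hk3, which are not corrected for length, Hk1 took 33.2% ± 7.03, Hk2 26.6% ± 3.67 and Hk3 40.2% ± 7.91 (SD, n = 9). Hk3, known as a hexokinase of myeloid cells, had its lowest share in A1, at 25.0%, and its highest in C1, at 50.4%.

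Of the lactate dehydrogenase counts, 97.6% ± 1.13 were in Ldha and the rest in Ldhb, the heart form. The share of Ldhb ran from 1.05% in C2 to 4.17% in B1, with a mean of 3.39% in prefix B and 1.64% in prefix C, and its level had a slope on Ldha of -0.74 ± 0.26 (SE, limma adjusted p = 0.075). Slc2a1 held 98.2% ± 0.728 of the sum with Slc2a3, and Aldoa 97.2% ± 1.08 of the sum with Aldoc. Pfkl, Pfkp and Pfkm held 53.6% ± 3.97, 34.7% ± 3.45 and 11.7% ± 2.36 of the phosphofructokinase sum.

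The pathway genes outside the 10 were read from the fit on Ldha, a predictor picked after the values had been seen. Of 26 further glycolysis genes 19 were tested, and 6 passed with a positive slope and 2 with a negative slope, beside 8.24% and 10.2% of all genes. The positive ones were Eno1 (slope 1.10 ± 0.11, SE) and Tpi1 (0.99 ± 0.090), the enolase and the triosephosphate isomerase between the 10 genes, Pgam1 (0.64 ± 0.11), the mutase beside them, Eno2 (1.25 ± 0.28), Pfkfb1 (0.94 ± 0.29) and Slc16a3 (1.44 ± 0.25), the lactate exporter MCT4. Negative slopes were found for Aldoc (-0.90 ± 0.25), an aldolase of the brain, and Slc16a7 (-1.03 ± 0.18), the monocarboxylate transporter MCT2. The share of the list with a negative slope was near that of all genes. Limma adjusted p of these 8 genes was between 0.0014 and 0.0496. The largest was that of Pfkfb1, whose level rests on few reads (19 to 38 per library).

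Eno1 was at 46094 normalized counts in A1, between 18931 and 23785 in the B libraries, and between 24320.1 and 34099 in the C libraries, without overlap of B and C. Reads of Eno1 and of its near-identical copy Eno1b may be shared, and its value is uncertain to that extent. Slc16a3 was at 4370.2 in A1, between 1492 and 2081 in prefix B, and between 2448 and 5301 in prefix C, and here C2 and not A1 was the highest. Without A1, Tpi1, Eno1, Pgam1 and Slc16a3 kept passing with a positive slope and Aldoc and Slc16a7 with a negative one, beside 2.01% and 4.53% of all genes. The median slope of the list was 0.36, beside -0.023 over all genes.

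HIF and its targets were examined because HIF-1 is a known activator of the pathway. Of the 21 genes of that list, 8 passed with a positive slope on Ldha and 2 with a negative one, beside 8.24% and 10.2% of all genes, so the share with a negative slope was near that of all genes. Hif1a itself (1.15 ± 0.17, SE), Bnip3 (1.57 ± 0.27), a mitophagy receptor, P4ha2 (1.71 ± 0.30), a collagen prolyl hydroxylase, and Vegfa (1.04 ± 0.23), the angiogenic growth factor, rose with Ldha. So did Egln3 (0.95 ± 0.21), Ddit4 (0.94 ± 0.25), Mif (0.86 ± 0.12) and Higd1a (0.80 ± 0.15). Epas1, which encodes HIF-2α, had a slope of -1.86 ± 0.38, and Mxi1, a MYC antagonist, one of -1.19 ± 0.15, with limma adjusted p of the 10 genes between 0.0038 and 0.035.

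The remaining 11 genes did not pass, among them Car9, a widely used hypoxia marker, with a slope of -0.17 ± 0.22, and Adm with 1.49 ± 0.78. Hif1a was at 8184 normalized counts in A1, between 3140 and 3688 in the B libraries, and between 4583 and 6705 in the C libraries. Epas1 was at 1118 in A1, between 3148.5 and 7495 in prefix B, and between 3023 and 7757 in prefix C, with its highest value in C3. Hence the clones with a high Ldha level had a high Hif1a level, and A1 had the lowest Epas1 level. Without A1, Hif1a, Bnip3, P4ha2, Higd1a and Mif kept passing with a positive slope and Mxi1 with a negative one, beside the same 2.01% and 4.53% of all genes. The median slope of the list was 0.45, beside -0.023 over all genes.

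**Figure D5:**
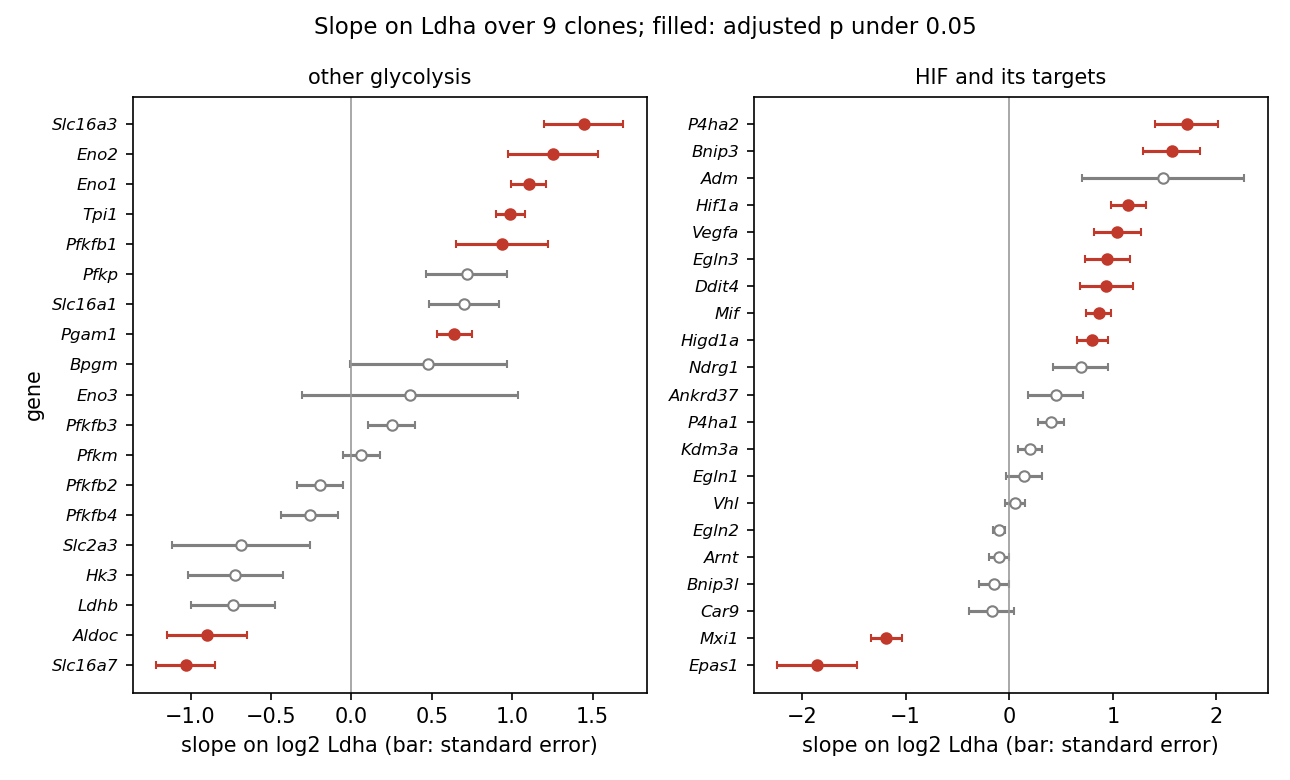
Slope on log2 Ldha over the 9 clones (horizontal axes, log2 units per log2 unit) for the tested genes of the further glycolysis list and of the HIF list (vertical axes), with bars for the standard error and filled points for a limma adjusted p under 0.05. In the glycolysis list 6 filled points lie to the right of 0 and 2 to the left, and in the HIF list 8 lie to the right and 2 to the left.

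Genes of the routes that branch off were read from the same fit. Of 13 genes of pyruvate entry into mitochondria, Pdha1 (0.51 ± 0.10), a pyruvate dehydrogenase subunit, and the inhibitory kinases Pdk1 (0.58 ± 0.13) and Pdk3 (0.62 ± 0.15) passed with a positive slope on Ldha, and the kinase Pdk2 (-0.69 ± 0.20) with a negative one (SE, limma adjusted p between 0.013 and 0.044). These 3 and 1 of 13 stand beside 8.24% and 10.2% of all genes. None of the 4 passed without A1, although the slopes were about as large, at 0.45 ± 0.14 for Pdha1, 0.56 ± 0.18 for Pdk1, 0.72 ± 0.21 for Pdk3 and -0.71 ± 0.28 for Pdk2, and 5 of the 13 had an unadjusted p under 0.05 there, against 28.4% of all genes. Of 7 genes of the pentose phosphate pathway none passed in limma, with 1 at an unadjusted p under 0.05, against 35.7% of all genes. Of 3 tested genes of gluconeogenesis, Pck2 passed with 0.92 ± 0.28 (limma adjusted p = 0.049), and without A1 it did not, at 0.88 ± 0.40 (adjusted p = 0.19). Of the regulators, Myc (0.60 ± 0.27), Txnip (-0.82 ± 0.35) and Tigar (0.18 ± 0.11) did not pass, with 1 of the 3 at an unadjusted p under 0.05.

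In the contrast of prefixes B and C, limma called none of the genes of these lists. At an unadjusted p under 0.05 there were 7 of 19 further glycolysis genes and 8 of 21 HIF genes, against 20.1% of all genes. The other lists had 1 of 13 genes for pyruvate entry, 0 of 7 for the pentose phosphate pathway, 1 of 3 for gluconeogenesis and 0 of 3 regulators. Against Mettl3, 1 gene of the lists passed, beside 2.2% of all genes, so it is not read as a result about the lists. It was the glucose transporter gene Slc2a3 (slope -0.73 ± 0.13, SE, limma adjusted p = 0.018), and no gene of the table passed without A1. Slc2a3 was at 15.3 normalized counts in A1 and between 38.5 and 64.7 in the other clones, levels that rest on few reads.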

How the data were processed

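Bulk RNA of 9 MPC clones was sequenced with a stranded mRNA kit. The authors deposited 1 log2 value per gene and library, that is, log2 of reads times a scaling factor per library plus 4. The submitters' processing notes name FastQC 0.11.9, STAR 2.7.10, RSEM 1.3.3 and GRCm38, and the scaling tool is not given in the sources used here. Undoing the log2 and subtracting 4 gave normalized counts, and the step of the low values gave whole reads for 100% of nonzero values under 1000 reads (tolerance 0.05 reads or the rounding of the deposited value). Very high read numbers are approximate. Column names match no single sample title, and 6 columns of other series were not used here.

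limma 3.58.1 in R 4.3.3 (lmFit, eBayes with a trend) was fitted to the deposited log2 values of the 14705 genes whose mean reached 10 normalized counts, with Benjamini-Hochberg adjustment over all genes and a threshold of 0.05. The fits were prefix B against C, the slope on log2 Mettl3, and the slope on each glycolysis gene. Since 4 is added before the log2 is taken, fold changes of low genes are understated. The fits were tested on simulated data. Wilson intervals at 95% and the floor of 3 reads cover counting error only. Alternatives were another offset, filter, scaling or trend setting, voom on recovered reads, and leaving out libraries. Those that left out each B or C library in turn for the slopes on Mettl3 and on glycolysis genes were chosen after seeing the data. Named genes are the 10, their paralogs and neighbouring steps, genes of the lists that passed, and the 3 most like Hk2, Slc2a1 and Ldha. The genes and lists were chosen with earlier results of these data known. Start sites and windows came from RefSeq, GRCm38.p6, and were joined by symbol. Of the deposited gene identifiers, 18033 matched a reference list of gene names. Tables and figures were made in Python 3.11.15 (matplotlib 3.10.9, scipy 1.17.1, pandas 2.3.3, numpy 2.4.6).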

Additional observations from a re-analysis of the deposited data

Results flagged for a closer look

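Over the 9 clones, the gap of the highest clone to the next one, as a share of the whole range, was above Dixon's 95% critical value for 3 of the 10 glycolysis genes. It was 0.695 for Gapdh, 0.555 for Gpi1 and 0.497 for Pgk1, and the highest clone was A1 each time. Chance nominally gives such a gap, at either end of the range, for about 1 gene in 20. The 3 genes share the same libraries. The share of all genes above that value was not computed, so the count of 3 has no background beside it. Of all genes tested, 19.9% were highest in A1. A1 is also the only library of its column-name prefix, the one with the fewest reads and the one with the highest Mettl3 level (2184 normalized counts), and these cannot be told apart.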

How the results depend on the processing

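All 30 recomputed mean levels and 18 recomputed paralog shares moved by less than 1 SD over the clones. The levels were recomputed by slight rescaling of the libraries or by leaving out A1, and the shares only by leaving out A1. Such changes could hardly move a mean by 1 SD, so this says little about how stable the values are. Between prefixes B and C, 0 of the 10 genes passed under 14 of 15 alternatives, with a range of 0 to 2 when each library was left out in turn, and the 2 (Pgk1 and Ldha) passed without C3. The number of all genes called in that contrast was 34, 19 without a filter on low values, and 8 to 266 when libraries were left out. With Mettl3, 0 of the 10 genes passed under all 16 alternatives, while the number of all genes called was 323, 60 with voom and 0 without A1. Without A1 the slopes on Mettl3 were reversed to -0.90 for Slc2a1, -0.73 for Hk1, -0.15 for Gpi1, -1.38 for Pfkl, -0.50 for Aldoa, -0.76 for Gapdh, -1.18 for Pgk1, -0.31 for Pkm and -0.97 for Ldha.

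Of 90 ordered pairs of glycolysis genes 45 passed with a positive slope. The number was 16 without A1, 1 with the prefix as a factor, and 28 to 47 when each B or C library was left out in turn, with 29 without B1 and 28 without B3, and 39 to 52 under the 7 other alternatives. Shares of all genes called are given above only for the main fits and the fits without A1. The other counts thus have no background beside them. The cause of these changes was not tested. The slope of Hk2 on Ldha was 0.052 and changed sign, to -0.048 without A1, -0.074 without B1 and -0.065 without C3, and was 0.68 ± 0.48 (SE) with the prefix as a factor (range -0.074 to 0.22 with each B or C library left out), and did not pass under any alternative. The depth leaves levels under 3 reads, 3.79 to 6.56 normalized counts, unresolved. No paired analysis was possible because the columns carry no replicate number that matches a sample title and all clones belong to 1 group.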
